A study of Mus musculus with 6 samples.

Results

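The genes described here are the 100 genes with the highest ratio of intron reads after optic nerve crush (ONC) to intron reads after sham surgery in mouse retina, relative to all intron reads of a sample. They were selected on these same libraries: a gene was kept when it had at least 50 intron reads and 50 exon reads in every sample, its intron reads were divided by the summed intron reads of the kept genes, and genes were ordered by the ratio of the ONC mean to the sham mean. From 35485 genes in the deposited tables, the read minimum kept 6939, and the 100 genes were the first of that order. Esp38, a single gene that held between 391987 and 1193154 reads per sample, was left out. Intron ratios of these genes therefore describe the choice, and no test is attached to them. Exon reads came from the same libraries and are given as a description too.

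The retinas came from male wild type C57BL/6 mice aged 12 weeks and were taken 2 days after surgery. In the ONC group the optic nerve was crushed 2 mm behind the globe for 10 s, and in the sham group it was only exposed. Each group had 3 samples, and each sample was a pool of RNA from 6 retinas of 6 mice, so that the spread between samples is a spread between pools. Whole retina was sequenced, in which retinal ganglion cells (RGCs), the cells whose axons are crushed, are a small share of all cells, and fewer cells of a type cannot be told apart from less RNA per cell.

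A gene is first transcribed as pre-mRNA with its introns, which are removed by splicing, mostly while the gene is still being transcribed. Exon reads mainly come from mature mRNA, which is stable and abundant, whereas intron reads come from pre-mRNA, from introns kept in the transcript and from traces of genomic DNA. Comparing both kinds of reads for a gene is a common way to set pre-mRNA beside mature RNA, because a gene whose transcription changes should show the change in its introns before or along with its exons.

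Sham 3 and ONC 1 stood apart from the other samples of their groups in their intron reads. Genes with more than 100 kb of intron held 47.9% of the kept intron reads in sham 3 but 38.6% and 39.3% in sham 1 and sham 2, and 39.6% in ONC 1 but 31.2% and 33.9% in ONC 2 and ONC 3. The kept genes had 24.0, 23.6 and 31.8 intron reads per 100 exon reads in the 3 sham samples and 18.4, 18.2 and 21.6 in the 3 ONC samples, which was lower in every ONC sample than in any sham sample. Exon reads on all genes numbered 17343945 to 20358008 per sample. RGC markers were called lower in ONC in exon reads for 8 of 18 genes tested, beside 0.834% of all genes tested. The summed RPKM of the RGC markers ranged from 589 to 619 in sham and from 458 to 479 in ONC.

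Summed over the 100 genes, intron reads made up 0.406%, 0.363% and 0.295% of the kept intron reads in sham 1, 2 and 3 and 0.577%, 0.821% and 0.687% in ONC 1, 2 and 3. ONC 1 was the lowest ONC sample and sham 3 the lowest sham sample. Set against their own exon reads, the 100 genes had 8.70, 7.97 and 8.65 intron reads per 100 exon reads in sham and 8.91, 11.6 and 12.0 in ONC. On this scale ONC 1 lay next to sham, and the means were 8.44 ± 0.408 in sham and 10.8 ± 1.68 in ONC (SD, n = 3 pools). Over all kept genes the same quantity went the other way, from 26.5 ± 4.62 in sham to 19.4 ± 1.91 in ONC. The direction differed with intron length when intron reads were divided by the exon reads of the library. The median log2 change was then 0.10 for kept genes with under 10 kb of intron and -0.07 for 10 to 30 kb. It was -0.33 for 30 to 100 kb and -0.67 above 100 kb. Reads that spanned an intron-exon boundary of the 100 genes, which are counted in a column of their own, numbered 3.87, 3.61 and 3.50 per 100 exon reads in sham and 3.13, 4.38 and 4.56 in ONC, where ONC 1 was the lowest of all 6 samples. How such reads enter the other columns is not given in the sources used here. Among the kept genes 151, and among the 100 genes 16, had more boundary reads than intron reads in a sample, so that their boundary reads cannot all be among the intron reads (Ppox had 205 boundary, 76 intron and 539 exon reads in sham 1). No kept gene had more boundary reads than exon reads in a sample. Intron reads as used here can thus miss pre-mRNA reads that touch an exon, and exon reads can hold them. Boundary reads per 100 exon reads averaged 3.66 in sham and 4.02 in ONC for the 100 genes. For all kept genes they averaged 2.06 and 2.03.

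**Figure D1:**
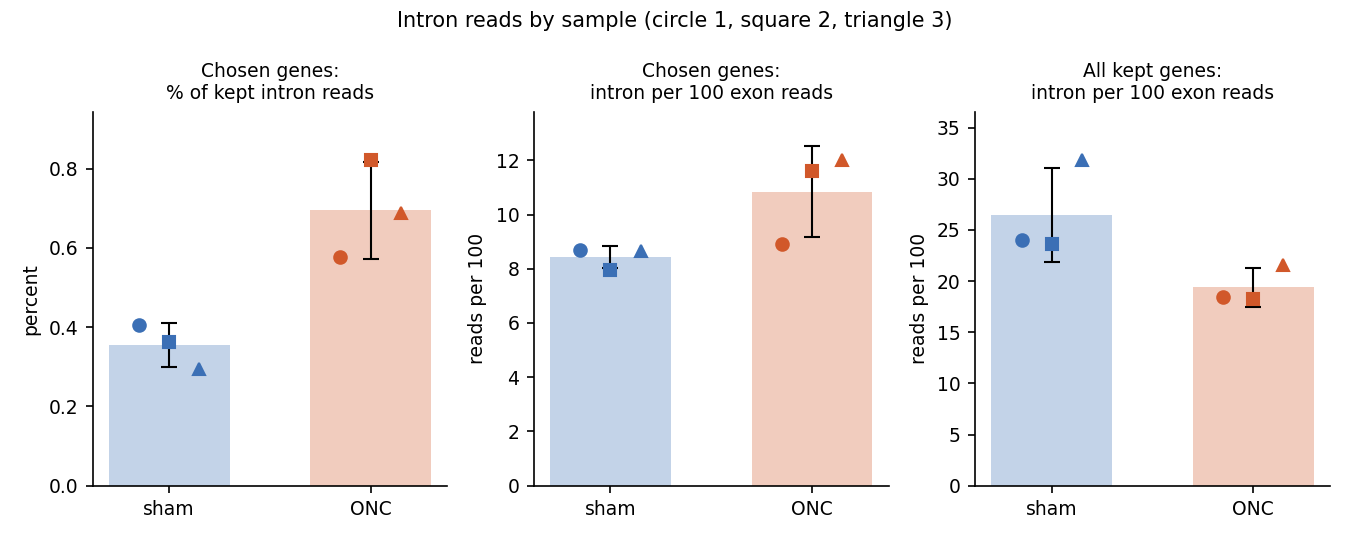
Intron reads by sample, with bars for the mean of 3 pools, lines for the SD and a point per pool. The left panel gives the percent of kept intron reads that fell in the 100 chosen genes, and the middle and right panels give intron reads per 100 exon reads of the chosen genes and of all kept genes: the chosen genes were higher in ONC 2 and ONC 3 with ONC 1 near sham, and the kept genes as a whole were lower in ONC.

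The highest ratio was that of Opn1sw, the short-wavelength opsin of cone photoreceptors (GRCm38 chr6:29376671-29380513). Levels of intron reads are given from here on as intron RPM, intron reads of the gene per 1000000 intron reads of the kept genes, and levels of exon reads as exon RPM, likewise over the exon reads of the kept genes. Opn1sw had 51.8, 60.7 and 33.3 intron RPM in sham 1, 2 and 3 and 79.7, 156 and 117 in ONC 1, 2 and 3, a ratio of 2.42. Its exon RPM was 472, 479 and 519 in sham and 477, 584 and 505 in ONC. The groups did not overlap in intron reads and overlapped in exon reads, for which the log2 fold change was 0.06 (SE 0.07). Alas1, the rate-limiting enzyme of heme synthesis, followed with 18.3, 14.5 and 13.8 intron RPM in sham and 41.8, 36.6 and 30.3 in ONC. These rest on 51 to 62 intron reads per sham sample, and ONC 1 was here the highest sample. The exon RPM of Alas1 was 33.7, 36.9 and 34.9 in sham and 40.0, 40.5 and 41.5 in ONC. The groups did not overlap there either, at a log2 fold change of 0.18 (SE 0.10). Ppox, which acts late in heme synthesis, was also among the first 20, with 22.4, 20.7 and 16.2 intron RPM in sham and 26.0, 52.2 and 46.8 in ONC. In Ppox the difference lay in ONC 2 and ONC 3, while ONC 1 was close to sham 1. Of 8 heme synthesis enzymes 6 were kept, and 5 of these had a log2 intron ratio above 0 (68.8% of kept genes). Their median was 0.39, from -0.09 in Fech to 1.23 in Alas1, beside 0.51 for all kept genes with under 10 kb of intron. None of the 8 passed the 1.5-fold threshold in exon reads.

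Both ribosomal proteins in the top 20 had a changed intron level beside a nearly level exon count. Rpl10a, of the large subunit, had 75.9, 59.0 and 49.8 intron RPM in sham and 104, 156 and 151 in ONC, and 349, 321 and 353 exon RPM in sham against 340, 381 and 382 in ONC. Rps24, of the small subunit, had 68.0, 51.9 and 39.8 intron RPM in sham and 94.5, 133 and 120 in ONC, with an exon log2 fold change of 0.02 (SE 0.07). The exon values of such genes are uncertain, because processed copies elsewhere in the genome share their sequence. Only 6.08% of the exon reads of Rpl10a mapped to one place. Those unique exon reads numbered 274, 203 and 230 in sham and 339, 425 and 525 in ONC. Their log2 fold change was 0.64, beside 0.08 for all exon reads. Boundary reads of Rpl10a numbered 214, 166 and 169 in sham and 211, 336 and 442 in ONC. How many of the unique exon reads were boundary reads is not given, so 0.64 is not taken as a change of mature RNA. For Rps24, with 60.2% unique exon reads, the unique reads gave 0.01.

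Other members of the first 20 serve general functions of the cell. Atp6v0c, a subunit of the proton pump of lysosomes and synaptic vesicles, had 92.7, 71.7 and 48.9 intron RPM in sham and 112, 182 and 149 in ONC. Its exon RPM was 722, 700 and 681 in sham and 686, 680 and 705 in ONC, which overlap, although 27.9% of them were unique. Cdk2ap2, a CDK2-associated protein with the shortest introns of the 100 genes (0.756 kb), had 18.0, 19.8 and 16.9 intron RPM in sham and 36.2, 43.1 and 36.7 in ONC. In this gene all 3 ONC samples lay close together and well above sham. Mpi, mannose phosphate isomerase, had 19.7, 18.7 and 13.8 in sham and 29.3, 44.4 and 37.6 in ONC, with an exon log2 fold change of -0.05 (SE 0.10).

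For 2010107E04Rik, a short gene of chromosome 12, intron RPM was 42.1, 27.8 and 30.4 in sham and 64.5, 83.4 and 73.7 in ONC. Its exon reads were lower rather than higher, with a log2 fold change of -0.11 (SE 0.07), so that it had the largest excess of intron over exon change in the list, 1.08 (SE 0.20) on the log2 scale. C1ql3, a secreted C1q-like protein of synapses, differed from most of the list in that sham 3 was its highest sham sample, at 34.9 beside 25.9 and 25.5, with 53.3, 60.0 and 66.2 in ONC. The remaining genes of the first 20 were Gtpbp5, Wdr83, Ube2q1, Cox7c, Nudt9, Nop56, Atraid and Ift20, with ratios between 2.07 for Ift20 and 2.14 for Gtpbp5. Several of these rested on few intron reads, such as Wdr83 with 50 to 59 per sham sample, Nudt9 with 53 to 79 and Cox7c with 59 to 67.

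**Figure D2:**
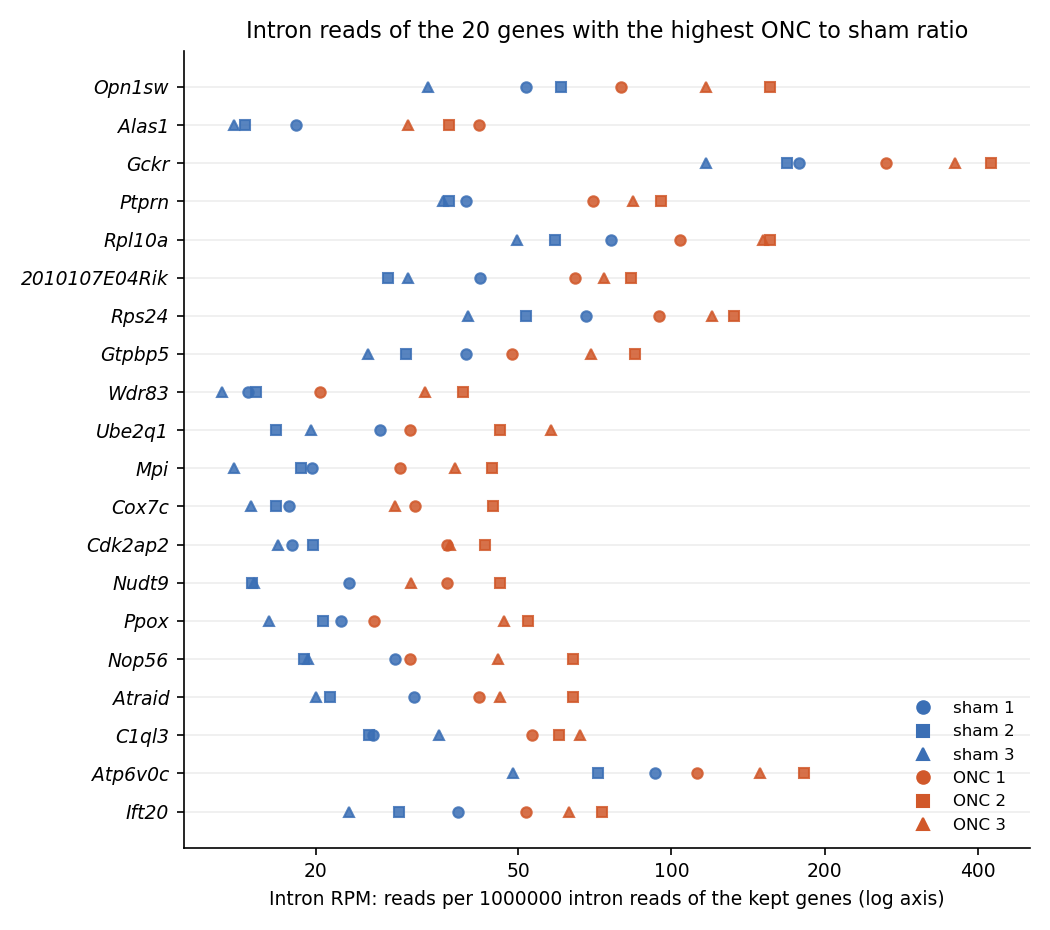
Intron RPM (log axis) for the 20 genes with the highest ratio, by sample, blue for sham and orange for ONC. In each gene the 3 ONC samples lie above the 3 sham samples, which follows in part from how the genes were chosen, and in most of them ONC 1 (circle) is the ONC sample nearest to sham.

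Over the whole list, all 3 ONC samples lay above all 3 sham samples in intron share for 94 of 100 genes, where 20.2% of the kept genes did so. The 6 exceptions were Irf3, Rnf215, Ndufb7, Spata5, Farsa and Abtb1. ONC 1 was the lowest ONC sample in 71 genes and sham 3 the lowest sham sample in 70, beside 61.6% and 62.4% of the kept genes. In the edgeR fit with TMM scaling, 74 of the 100 genes passed an adjusted p under 0.1 with a fold change above 1.5 in intron reads, a threshold passed upwards by 1.54% of the kept genes. Because these reads chose the genes, nothing is read from those counts. The size of the intron change depended on what the intron reads were divided by. Its median over the 100 genes was 0.94 on the log2 scale when divided by the summed intron reads, 0.76 with TMM and 0.51 when divided by the exon reads of the library, where 9 genes passed, of 9 among all kept genes (0.13%). The median of all kept genes was 0.19, 0.02 and -0.23 on these scales, a shift that the divisor gives to all genes alike and that supports nothing about the chosen ones.

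Leaving out single samples changed these counts. Without ONC 2 or without ONC 3 none of the 100 genes passed in the edgeR intron fit (2 and 1 of all kept genes did, with 930 and 1235 at an unadjusted p under 0.05), while the median over the 100 genes was 0.71 and 0.80. Without sham 2 or without sham 3, 27 and 24 genes passed (0.749% and 0.504% of kept genes passed upwards), and without sham 3 and ONC 1 together, the samples that stood apart, 68 passed (2.12%). The order itself moved as well. With ONC 2 left out 60 of the 100 genes were chosen again, with sham 2 left out 53, and 21 genes were chosen again whichever sample was left out, among them Opn1sw, Alas1, Gckr, Ptprn, Rpl10a, Rps24 and Cct2.

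Exon reads of the 100 genes differed far less than their intron reads. The genes were ordered by intron and not by exon change, so this gap follows in part from the choice. The median exon log2 fold change was 0.11, from -0.13 to 0.80, beside 0.00 for all kept genes, and 82 of 100 genes were above 0 beside 49.5% of the kept genes. Exon reads were within 1.1-fold of sham for 53 genes (67.5% of kept genes), higher by 1.1-fold to 1.5-fold for 43 (15.1%) and higher by more than 1.5-fold for 4 (0.187%), and none was lower by more than 1.1-fold, where 17.1% of the kept genes were. In exon RPM all 3 ONC samples lay above all 3 sham samples for 39 of the 100 genes, beside 13.9% of the kept genes. Dividing by all reads on genes instead, as RPKM does, gave 53 genes and 28.7%, and a median exon change of 0.24 beside 0.13 for all genes tested. Intron change exceeded exon change by a median of 0.65 on the log2 scale, and 21 genes passed the same threshold for that difference, beside 0.461% of kept genes in that direction. With unique reads 9 passed (0.231% of genes tested) and without TMM 42 (2.20%). As the difference holds the intron reads that chose the genes, nothing is read from these counts either.

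**Figure D3:**
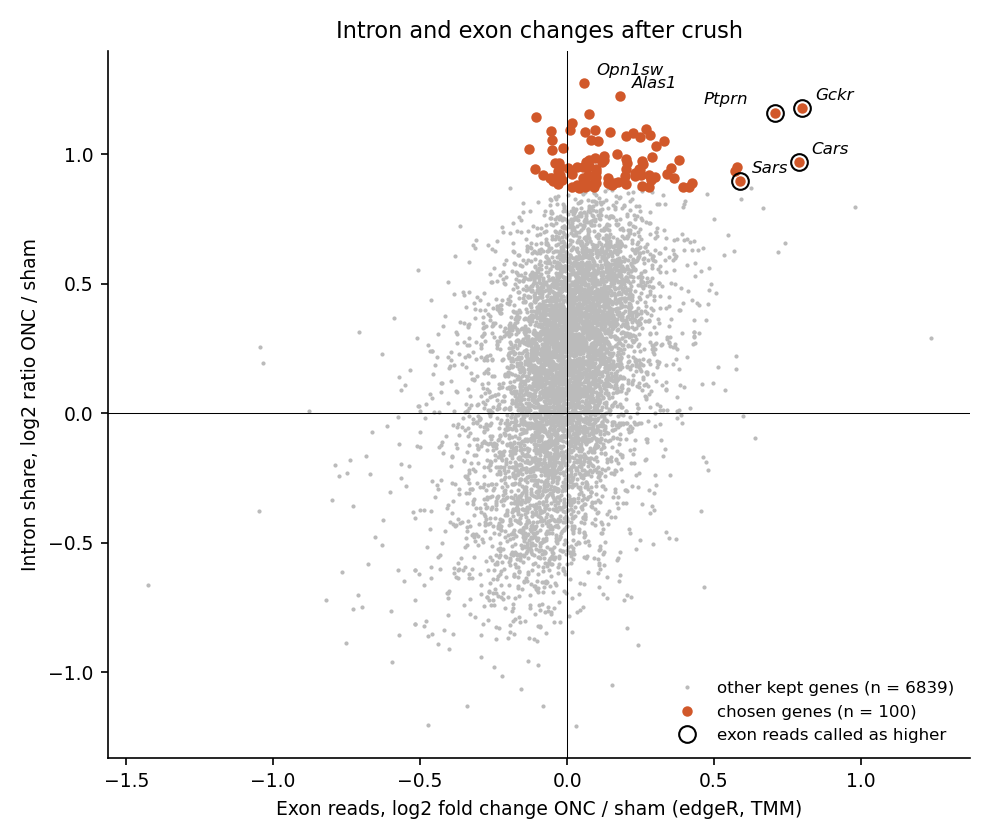
Log2 change of intron share (vertical) against log2 change of exon reads (horizontal) for the 6939 kept genes, with the 100 chosen genes in orange and rings for the 4 whose exon reads passed the threshold. The chosen genes form a band above 0.87 by construction, and most of them lie between -0.13 and 0.43 on the exon axis. Gckr, Cars, Ptprn and Sars stand to the right, as do Ovgp1 and E230008N13Rik, which have no ring and lie close to Sars.

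Exon reads passed the threshold upwards for 4 of the 100 genes, beside 0.827% of the 13670 genes tested, and for none downwards, beside 0.834%. Among the 6939 kept genes, from which the 100 were chosen, 12 passed upwards (0.173%). The 4 genes were Gckr, Cars, Ptprn and Sars, which were also higher in exon reads in every ONC sample than in any sham sample. Gckr, which encodes the regulatory protein of glucokinase, had 178, 169 and 117 intron RPM in sham and 264, 425 and 360 in ONC, and 47.7, 42.6 and 35.9 exon RPM in sham and 61.8, 84.8 and 78.4 in ONC. Its intron reads nearly equalled its exon reads, at 89.2, 93.4 and 104 per 100 exon reads in sham and 78.6, 91.4 and 99.3 in ONC. Intron and exon thus moved together in this gene, with an exon log2 fold change of 0.80 (SE 0.11). Ptprn, a membrane protein of dense-core vesicles, had 39.4, 36.6 and 35.6 intron RPM in sham and 70.1, 95.3 and 84.1 in ONC. Its exon RPM was 172, 140 and 155 in sham and 279, 249 and 248 in ONC, a log2 fold change of 0.71 (SE 0.08). ONC 1 was the highest ONC sample in exon reads of Ptprn and the lowest in its intron reads.

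Cars and Sars join cysteine and serine to their tRNAs. Cars had 60.9, 51.6 and 51.1 intron RPM in sham and 108, 113 and 99.8 in ONC, and 35.0, 33.4 and 38.7 exon RPM in sham and 60.6, 64.9 and 63.6 in ONC. All 3 ONC samples of Cars lay close together in both kinds of reads, and its intron reads per 100 exon reads went from 41.7, 36.5 and 41.9 in sham to 32.9, 31.6 and 33.9 in ONC, the one gene of the 100 in which every ONC sample was below every sham sample, beside 26.2% of kept genes. Sars had 42.4, 50.5 and 36.0 intron RPM in sham and 62.6, 85.4 and 92.0 in ONC. Its exon RPM was 187, 171 and 163 in sham and 259, 282 and 258 in ONC, with a log2 fold change of 0.59 (SE 0.06) that lay just past the limit of 1.5-fold and passed it in 8 of 17 fits, while Gckr, Ptprn and Cars passed in all 17. The next in exon change were Ovgp1, an oviductal glycoprotein (0.58, SE 0.18), and E230008N13Rik (0.57, SE 0.21), both with few exon reads. Ovgp1 had 171, 185 and 123 exon reads in sham and 207, 315 and 308 in ONC.

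**Figure D4:**
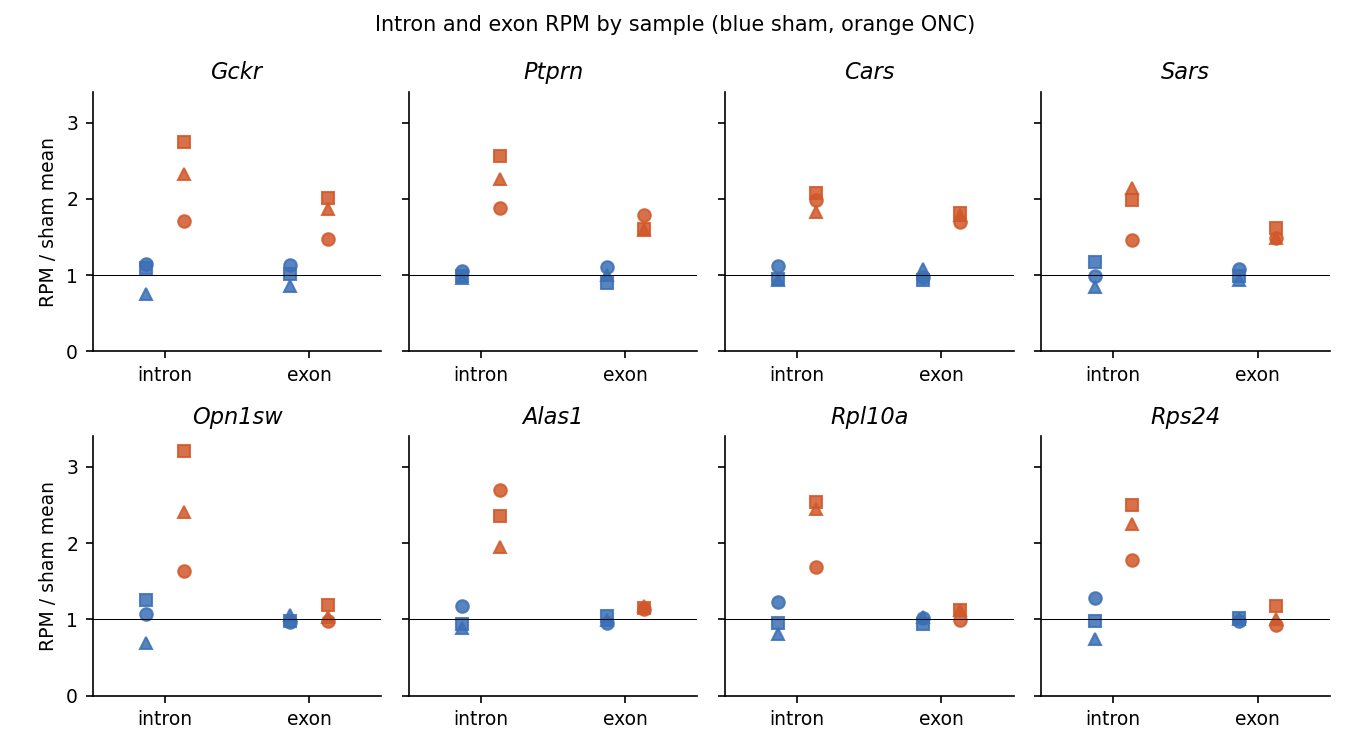
Intron and exon RPM, each divided by the mean of the 3 sham samples, for 4 genes whose exon reads passed the threshold (top) and for 4 of the highest intron ratios (bottom), with a point per sample. In the top row exon reads of every ONC sample lie above sham, and in the bottom row this holds for Alas1 only. Exon reads of the ONC samples in the bottom row lie nearer to 1 than their intron reads. The intron reads reach up to about 3 times the sham mean in Opn1sw.

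The lowest exon changes of the list were those of Orc6, of the origin recognition complex (-0.13, SE 0.14), 2010107E04Rik (above), Sh2d5, an SH2 domain adaptor (-0.11, SE 0.10), Pcyt2, of phosphatidylethanolamine synthesis (-0.08, SE 0.09), and Usp5, which takes apart free ubiquitin chains (-0.06, SE 0.07). In Orc6 intron reads numbered 73, 79 and 64 in sham and 101, 129 and 146 in ONC, and exon reads 389, 308 and 346 in sham and 326, 434 and 349 in ONC. The groups were apart in intron reads and overlapped in exon reads. Usp5 had 73, 76 and 72 intron reads in sham and 93, 156 and 97 in ONC, so that ONC 2 set its ratio, and 110, 111 and 105 exon RPM in sham and 108, 107 and 104 in ONC.

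Several members belong to the same protein families, which were noticed after the values had been seen. Of 20 cytosolic aminoacyl-tRNA synthetases 14 were kept and 4 were in the list, Cars, Farsa, Mars and Sars. Mars, for methionine, had 33.9, 32.3 and 15.6 intron RPM in sham and 49.4, 62.0 and 49.3 in ONC, with an exon log2 fold change of 0.25 (SE 0.07), and it overlaps Ddit3, a stress-response gene whose exon reads rose (log2 fold change 0.98, edgeR adjusted p = 1.08e-06). Farsa, for phenylalanine, was uneven, with 32.1, 47.3 and 32.9 in sham and 38.2, 104 and 63.6 in ONC, so that ONC 1 lay within sham. Over the 14 kept synthetases 13 had an intron ratio above 1, as did 68.8% of all kept genes, and the median log2 ratio was 0.53 beside 0.19. Exon reads rose past the threshold for 2 of the 20, Cars and Sars, beside 0.827% of all genes tested. The rise was not confined to these: the median exon log2 fold change of the 20 was 0.23, and the lowest was -0.04, in Dars. Aars, Gars and Tars, at 0.49, 0.51 and 0.50, had an edgeR adjusted p under 0.1 but did not reach 1.5-fold.

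The CCT chaperonin folds actin and tubulin, and Cct2, Cct4 and Cct5 were in the list among 6 kept subunits. Cct2 had 25.9, 23.0 and 17.1 intron RPM in sham and 39.2, 46.8 and 44.0 in ONC, and Cct4 had 46.8, 47.3 and 38.4 in sham and 79.7, 85.8 and 80.2 in ONC. Both were tight within ONC, and the exon log2 fold changes of Cct2, Cct4 and Cct5 were 0.07, 0.16 and 0.10. All 6 kept subunits had a log2 intron ratio above 0, from 0.30 to 0.98, beside the 68.8% of kept genes. Of the ribosomal protein genes 13 were kept and 3 were in the list, Rpl10a, Rps24 and Rpl30, with a median log2 ratio of 0.60 over the 13 and 12 above 0. Subunits of oxidative phosphorylation gave 4 members, Cox7c, Atp5h, Atp5j and Ndufb7, of 55 kept, 52 of which were above 0 with a median of 0.40. These medians stand beside 0.51 for all kept genes with under 10 kb of intron, the length class that holds the median intron lengths of the kept ribosomal (2.88 kb) and oxidative phosphorylation genes (7.56 kb).

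Photoreceptor genes were represented by Opn1sw and by Nr2e3, a nuclear receptor of rods that represses cone genes. Nr2e3 had more intron reads than most, 2110, 1768 and 1650 in sham and 2331, 3264 and 3289 in ONC, or 621, 501 and 367 intron RPM in sham and 767, 1110 and 922 in ONC. Its exon RPM was 1090, 921 and 986 in sham and 1360, 1350 and 1230 in ONC, so that both kinds of reads were apart between groups, with an exon log2 fold change of 0.37 (SE 0.06) that did not reach 1.5-fold. All 16 photoreceptor markers on the list used here were kept, all 16 had a log2 intron ratio above 0 (68.8% of kept genes), and Opn1sw alone was a member. Their median was 0.43 and their median intron length 8.98 kb, a length class in which all kept genes had a median of 0.51. None of the 16 passed the threshold in exon reads, beside 0.827% of all genes tested upwards and 0.834% downwards. Arr3, the cone arrestin, came 126th in the order, with a log2 ratio of 0.84. Not all cone and rod genes had a ratio above 0. Of 14 grouped with Nr2e3 after the values had been seen, 13 were kept and 10 of these were above 0, with a median of 0.56. Rorb, Thrb and Cngb3 were below, at -0.65, -0.51 and -0.37, with 171, 371 and 225 kb of intron. Kept genes with more than 100 kb had a median of -0.22.

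Of 356 genes on 20 lists of retinal cell types and injury responses, 104 were kept by the read minimum and 4 were members, Opn1sw, Clu, Slc3a2 and Sars. The integrated stress response, in which a block of translation raises Atf4 and its targets, had 37 genes. Of 36 tested 15 rose in exon reads (0.827% of all genes tested) and none fell (0.834%), with a median log2 fold change of 0.55. Only 12 of the 37 had enough intron reads to be kept. All 12 had a log2 intron ratio above 0, from 0.19 to 0.90, as did 68.8% of kept genes, and Sars and Slc3a2 were the 2 in the list. Slc3a2, the heavy chain shared by several amino acid transporters, had 33.9, 34.9 and 33.8 intron RPM in sham and 61.6, 67.1 and 62.8 in ONC, among the most even values of the list. Its exon RPM was 132, 135 and 131 in sham and 164, 163 and 168 in ONC, a log2 fold change of 0.29 (SE 0.06), under the 1.5-fold limit. Aldh18a1 and Ddit3 of the same list ranked 152nd and 169th.

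Clu, the secreted chaperone clusterin made by Müller glia, had 23.3, 16.4 and 16.2 intron RPM in sham and 23.7, 38.6 and 45.4 in ONC, and 588, 591 and 544 exon RPM in sham against 751, 746 and 751 in ONC. In Clu the exon reads separated the groups clearly at a log2 fold change of 0.35 (SE 0.05), whereas ONC 1 lay beside sham 1 in intron reads, which numbered only 58 to 79 in sham. No gene of the AP-1 list (0 of 26) was kept, and of the axon injury list 5 of 31 and of the microglia list 1 of 22 were kept, so that the read minimum decided which injury genes could enter. In exon reads 3 of 24, 11 of 30 and 4 of 21 genes tested on those lists rose and none fell, where 0.827% of all genes tested rose. Markers of other tissues also moved: on the lens list 1 of 7 genes tested, Cryaa, rose, with a summed RPKM of 6.53 to 42.4 in sham and 43.5 to 54.8 in ONC, and on the blood and muscle list 2 of 7, Hba-a1 and Hba-a2, fell, with 120 to 262 in sham and 82.5 to 116 in ONC. Of all genes tested 0.834% fell. No gene of the lens list or of the blood and muscle list was kept, and their part in the values of the 100 genes was not tested.

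The 100 genes were short. Their median summed intron length was 6.94 kb, beside 34.5 kb for the kept genes, their median exon length was 1860 bases beside 3450, and they had a median of 9 exons beside 12. Intron reads per kb of intron in the sham samples were higher, with a median of 12.9 beside 7.01. The sham RPKM was a median of 15.8 beside 11.6. Among kept genes with under 10 kb of intron 65 of 956 were members (6.80%), and among those with 10 to 30 kb 31 of 2175 (1.43%). Of 2449 genes with 30 to 100 kb 2 were members, Cars and E230008N13Rik, and of 1359 with more than 100 kb 2 were members, Spata5 and Heph. The change in intron share was lower the longer the introns over all kept genes, going from a median log2 ratio of 0.51 under 10 kb to 0.35, 0.10 and -0.22 in the longer classes. The median exon log2 fold change of these classes ran from 0.06 to 0.03, -0.01 and -0.10.

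**Figure D5:**
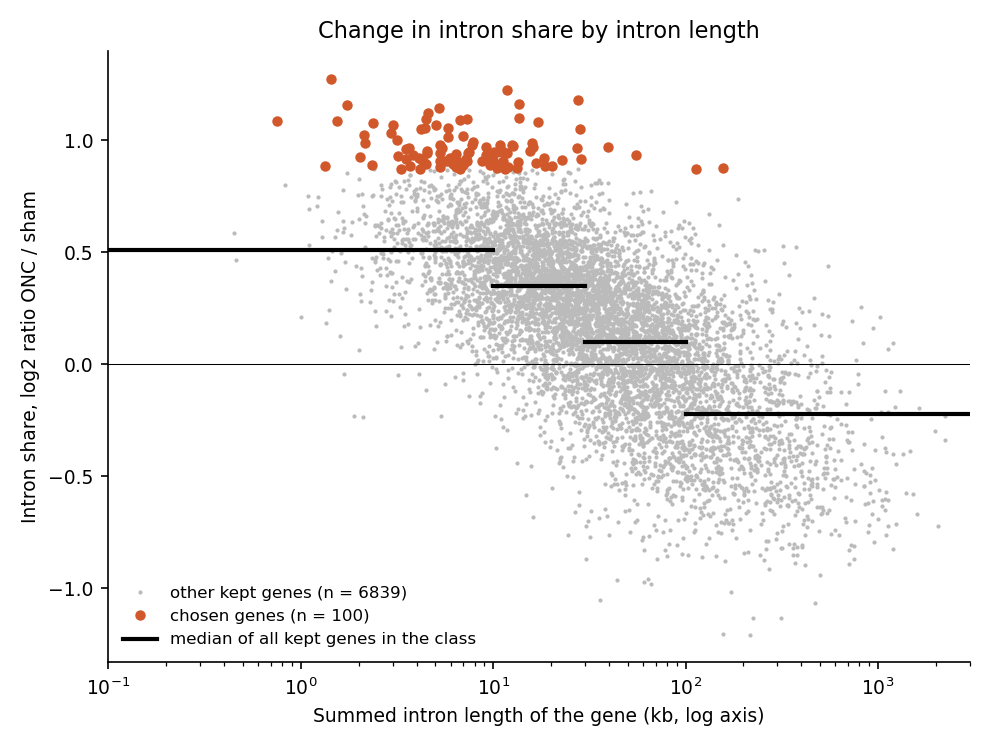
Log2 ratio of intron share, ONC to sham, against the summed intron length of each gene (log axis) for the kept genes, with the 100 chosen genes in orange and black bars for the median of each length class. The medians step down from 0.51 in the shortest class to -0.22 in the longest, and most chosen genes lie at the short end.

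The same order of lengths separated the samples within a group. Genes with under 10 kb of intron held 6.31%, 6.14% and 4.28% of the kept intron reads in sham 1, 2 and 3 and 6.62%, 9.26% and 8.18% in ONC 1, 2 and 3, so that ONC 1 was close to sham 1 and sham 2 while sham 3 was lower. The part that this difference in length composition had in the choice of single genes was not tested. When a smooth trend on intron length was taken out of each sample, a step added after the data had been seen, 24 of the 100 genes were again among the first 100. The log2 ratios of the 100 then ran from 0.22 to 1.05, with a median of 0.46 beside 0.01 for the kept genes, a description of values that chose the genes. Among the 24 were Spata5 (1st) and Heph (2nd), whose reads are described next, Gckr (3rd), E230008N13Rik (5th), Alas1 (7th), Cars (8th), Ptprn (18th) and Opn1sw (68th), whereas Rpl10a moved to rank 161 and Cdk2ap2 to rank 496.

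Spata5 and Heph, the members with the longest introns, had unusual reads. Spata5 had 198, 166 and 281 intron reads in sham and 105, 617 and 229 in ONC, so that ONC 2 alone gave it its place and ONC 1 was the lowest of all 6 samples. Heph, a copper-containing ferroxidase, had 264, 445 and 315 intron reads in sham and 589, 483 and 512 in ONC, but 3.22% of them mapped uniquely. The share of unique intron reads was also low in Pigf (24.4%), Gtf3a (49.6%), Plxnb1 (61.9%) and Ercc1 (81.9%), of GPI anchor synthesis, RNA polymerase III transcription, semaphorin signalling and DNA repair. It was at least 99% in 89 of the 100 genes, beside 72.7% of the kept genes. With unique reads alone 91 of the 100 genes were chosen again. In exon reads 18 of the 100 had under 90% unique reads, beside 8.24% of kept genes.

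The order had no step at its limit. The last genes inside were Rbm3, a cold-inducible RNA-binding protein, Abtb1 and Heph, and the first outside were Ccdc63, Pcsk1n, an inhibitor of prohormone convertase, and Fam50a, all with a ratio of 1.83. Pcsk1n had an exon log2 fold change of -0.19 (SE 0.08) and Ccdc63 of 0.63 (SE 0.21). The counts behind the order were small: 70 of 100 genes had under 100 intron reads in at least one sample, beside 29.3% of kept genes, and the median lowest count was 77.5 reads, whose counting error alone is 11.4%. With a minimum of 20 reads in place of 50, 25 of the 100 were chosen again, and with a minimum of 100 reads the 30 that passed it were.

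The annotation adds limits for single genes. Of the 100 genes 24 overlapped another annotated gene, beside 28.1% of kept genes, among them Opn1sw with Calu, Wdr83 with Dhps, Nop56 with Idh3b, C1ql3 with Pter and Atp5j with Gabpa. The sources used here do not state that reads were counted by strand, so reads of such a partner cannot be told apart from intron reads. A snoRNA gene lay within 5 of the 100 genes, Cox7c, Nop56, Rpl30, Ranbp1 and Sars, beside 3.11% of kept genes, and Nop56, a core protein of box C/D snoRNPs, held 5 of them. The intron reads of all 3 ONC samples, set per exon read of the same gene, lay above those of all 3 sham samples in 30 of the 100 genes, beside 1.46% of kept genes, from which nothing is read, since the same intron reads chose the genes.

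Promoters of the members were searched for 4 motifs of factors linked to injury and stress, on both strands of the 250 bases before to 50 bases after each RefSeq start (GRCm38.p6), for 76 of the 100 genes found by symbol. The AP-1 motif TGANTCA was in 6 (7.89%), beside 7.81% of all 32851 promoters. The CRE motif TGACGTCA was in 3 (3.95%, beside 1.79%), the antioxidant motif TGACNNNGC in 16 (21.1%, beside 12.4%), and the C/EBP-ATF motif TGATGNAA in none (beside 3.97%). Among promoters of kept genes the shares were 5.44%, 3.83%, 17.4% and 2.53%, counted per gene as for the members. One promoter for each motif found is shown with the motif in capitals, to show what such a match looks like in a member: Cox7c, the cytochrome c oxidase subunit, with AP-1 (chr13:86046746-86047045, minus strand), Myl6, a myosin light chain, with CRE (chr10:128493837-128494136, minus strand), and Cct2 at one of its 2 starts with the antioxidant motif (chr10:117063326-117063625, minus strand). An AP-1 match and an antioxidant match can share the same start, so that these matches can overlap, and a match does not show binding.
Cox7c: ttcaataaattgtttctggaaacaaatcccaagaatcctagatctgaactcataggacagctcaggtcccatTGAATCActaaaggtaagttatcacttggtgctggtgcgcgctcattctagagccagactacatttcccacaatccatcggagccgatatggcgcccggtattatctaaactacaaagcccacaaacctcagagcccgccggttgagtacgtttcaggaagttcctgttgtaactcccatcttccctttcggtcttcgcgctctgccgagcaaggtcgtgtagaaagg
Myl6: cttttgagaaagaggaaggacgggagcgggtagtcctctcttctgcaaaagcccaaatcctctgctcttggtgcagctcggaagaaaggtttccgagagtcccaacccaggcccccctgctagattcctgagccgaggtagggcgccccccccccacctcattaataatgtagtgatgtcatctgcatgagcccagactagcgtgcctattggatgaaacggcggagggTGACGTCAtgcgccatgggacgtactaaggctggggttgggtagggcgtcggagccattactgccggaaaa
Cct2: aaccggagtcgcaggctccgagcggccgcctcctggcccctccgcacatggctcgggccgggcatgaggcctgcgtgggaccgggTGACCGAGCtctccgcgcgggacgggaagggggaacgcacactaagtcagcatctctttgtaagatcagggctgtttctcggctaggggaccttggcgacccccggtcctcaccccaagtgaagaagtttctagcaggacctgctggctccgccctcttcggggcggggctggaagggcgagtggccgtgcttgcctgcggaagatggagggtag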

How the data were processed

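RNA-seq of 3 ONC and 3 sham retina pools was analysed; members and gene lists were chosen with earlier results of these data known. The authors mapped 100 bp read pairs with CLC Genomics Workbench, at most 2 mismatches, counted an intact pair as 1, and deposited, for each sample, read counts per gene on whole genes, exons and boundaries, all and unique, with exon lengths and exon numbers. The deposited RPKM values divide exon reads by all reads on genes, introns included. A column of the authors' mean RPKM (1 column) was not used. The labels name mm9, but positions in the files matched GRCm38: 6313 of 6315 kept genes found in RefSeq GRCm38 by symbol overlapped there.

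Intron reads were total gene reads minus exon reads, and boundary reads, whose counting is not stated, cannot all be among them. Exon reads of genes with a mean RPKM above 0.3 in a group, and intron reads of kept genes, were fitted with edgeR 4.0.16 (TMM, quasi-likelihood test, Benjamini-Hochberg adjustment, R 4.3.3), and intron minus exon as an interaction. Genes were called when the change exceeded 1.5-fold at a false discovery rate below 0.1. Members were given no test of their own. DESeq2 1.42.0, other scalings, read minimums, unique reads, a replicate block and left-out samples were tried. Scripts were tested on simulated counts. The depth was 17343945 to 20358008 exon reads and 2950024 to 4499502 kept intron reads per sample, and intervals of counts cover counting error only. The length trend was a lowess fit (span 0.4, statsmodels 0.14.6). Genes were named by rule: the first 20, the 5 highest and 5 lowest exon changes, members on a gene list, 3 genes each side of the limit and the 5 lowest unique intron shares; all others named, and the families, were chosen after their values were seen.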

Additional observations from a re-analysis of the deposited data

How the results depend on the processing

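The exon fit called 227 genes, 350 when divided by all reads on genes, and 153 to 353 with single samples left out. The intron fit called 461 genes, 1193 when divided by exon reads of the library (an alternative chosen after seeing the data), and 1 to 885 with single samples left out. Of the 100 genes 74 were called in it, 43 and 28 with read minimums of 20 and 100 (all 100 and 30 of them could be tested), 9 when divided by exon reads, and 0 to 77 with single samples left out. The intron minus exon fit called 123 genes, of which 21 members were higher, 201 and 42 without TMM, and 51 and 9 with unique reads. The median exon log2 fold change of the 100 genes was 0.11, 0.24 when divided by all reads on genes, and 0.10 to 0.14 with single samples left out. Of the 100 genes 25 and 30 were chosen again with minimums of 20 and 100 reads, 56 by the ratio of medians, 46 by intron reads per exon read of the same gene, 24 with the trend on intron length taken out (the last pair chosen after seeing the data), and 53 to 77 with single samples left out. The cause of these changes was not tested.

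Deviations of same-numbered samples correlated at -0.172, -0.0358 and -0.0588 in exon reads and -0.267, 0.187 and 0.0306 in intron reads, so the replicate numbers did not pair the samples. With a replicate block the exon fit called 222 genes (5 members), and the intron fit 439 (54 members). For single genes, 1046 alternative values moved by less than the spread between replicates and 141 by more, none changing the sign of a called value.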
